A study of Mus musculus with 8 samples.

Results

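Genes that drive or restrain the cell division cycle were followed in whole kidneys of mice at postnatal day 3. The set held 42 genes, taken by symbol from a list of well-known cyclins, kinases, replication factors, mitotic regulators and inhibitors, out of 35976 genes in the deposited table. All 42 symbols were found and all 42 had enough reads over the 8 libraries to be tested, Cdkn2a only through its mutant libraries. They were sorted by the phase in which they usually act: 9 drivers of G1 and of the entry into S phase, 14 genes of S phase, 15 of G2 and mitosis (G2/M), and 4 inhibitors.

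The series compared kidneys carrying a YAP gain-of-function allele with controls, with an interest in both the distal nephron and the rest of the organ. Mutants were labelled Slc12a3 Cre/+; C1 YAP/+ and controls Slc12a3 Cre/+; C1 +/+, so both carried the Cre allele, and the labels do not explain C1. There were 2 libraries from male mutants, 2 from female mutants, 2 from male controls and 2 from female controls, each made from poly(A)-selected RNA. The Slc12a3 product is the sodium chloride transporter of the distal convoluted tubule, and Cre named for it is active in a small portion of kidney cells, while the RNA came from the whole organ. Nothing in the labels ties the libraries of a group to separate animals, so a p-value here reflects only library-to-library spread, which may be technical.

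In a cycling cell, D-type cyclins bind the kinases CDK4 and CDK6 in G1 and start the phosphorylation of the retinoblastoma protein, which frees E2F factors to switch on the genes of DNA replication. Cyclin E and CDK2 carry the cell into S phase, the MCM helicase opens the origins, and cyclins A and B with CDK1 drive mitosis. Inhibitors of the INK4 family block CDK4 and CDK6, and those of the CIP/KIP family block cyclin and CDK complexes more widely. YAP, held in check by the Hippo kinases, is a co-activator known to promote growth and division. The kidney of a newborn mouse is still forming nephrons and holds many dividing cells.

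Levels are given as RPKM (reads per kilobase of gene and per 1000000 reads) divided by a scaling factor of each library, called scaled RPKM. Changes are log2 differences of scaled RPKM + 0.1, mutant over control, from limma fitted over 18059 genes with sex as a covariate. A gene passed at a Benjamini-Hochberg adjusted p under 0.05. The replicate 1 libraries held 78.2 to 87.1 M reads (M, 1000000) and the replicate 2 libraries 22.8 to 25.2 M reads. Replicate number is thus also a batch of depth, with 1 library of every group in each, and values within a batch are given where they differ. Markers of kidney tubules were present in every library, although 6 of 8 fell and 1 rose in mutants, beside 13.0% and 13.2% of all genes. Yap1 itself was at 35.5 ± 0.789 scaled RPKM in mutants and 35.5 ± 3.74 in controls (SD, n = 4 each). As it is unclear whether reads of the allele itself were counted there, Yap1 cannot serve as a check of the labels.

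Of the 42 cell cycle genes, 5 rose, 2 fell and 35 did not pass, which makes 7 called genes, while 26.2% of all genes tested were called. Voom, a count-based fit on reads recovered from the RPKM, also called 7 (5 up and 2 down), beside 27.8% of all genes. The 7 were the inhibitors Cdkn2a and Cdkn2b, the G1 genes Ccnd1, Cdk6, Ccnd2 and Ccnd3, and the transcription factor gene Mybl2. From the replicate 1 libraries alone, 5 of the 42 rose and 0 fell, beside 9.08% and 9.82% of all genes. From the replicate 2 libraries alone, 3 rose and 1 fell, beside 8.85% and 8.16%. The median log2 change was 0.02 over the 42 genes and 0.01 over all genes tested. Mutant and control libraries did not overlap in 7 of the 42 (6 higher and 1 lower in mutants), beside 30.5% of all genes tested. By level, Cdk4 was the highest of the set, at an average of 314 scaled RPKM over the 8 libraries, and Cdkn2a the lowest, at 0.969.

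The largest changes among the 42 were in a neighbouring pair of inhibitor genes on chromosome 4. Cdkn2b encodes the INK4 inhibitor p15, and Cdkn2a encodes the INK4 inhibitor p16 and, from a separate upstream promoter, the p53-stabilising protein ARF. Both genes were low in control kidneys and both rose in all mutant libraries. Cdkn2b spans chr4:89306289-89311032 and Cdkn2a chr4:89274473-89294619 in the GRCm38.p6 assembly. Their promoters are shown because the genes rose together. The windows run from 250 bases before to 50 after the annotated start, from RefSeq on GRCm38.p6, and all lie on the minus strand. Capitals mark letters found by a search for 4 spellings of the E2F site (TTTCCCGC, TTTGGCGC, TTTCGCGC and TTTGCCGC), the cell cycle homology region or CHR (TTTGAA), the box known by its letters CCAAT, and the core of the TEAD site (GGAATG). Both strands were searched.
Cdkn2a, upstream start (chr4:89294570-89294869): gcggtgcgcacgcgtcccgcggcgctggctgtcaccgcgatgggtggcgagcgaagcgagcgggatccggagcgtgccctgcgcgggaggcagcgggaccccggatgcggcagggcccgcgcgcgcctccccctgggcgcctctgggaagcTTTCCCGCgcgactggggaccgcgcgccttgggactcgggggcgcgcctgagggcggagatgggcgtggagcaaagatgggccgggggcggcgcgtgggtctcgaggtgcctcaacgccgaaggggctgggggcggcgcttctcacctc
Cdkn2a, downstream start (chr4:89282143-89282442): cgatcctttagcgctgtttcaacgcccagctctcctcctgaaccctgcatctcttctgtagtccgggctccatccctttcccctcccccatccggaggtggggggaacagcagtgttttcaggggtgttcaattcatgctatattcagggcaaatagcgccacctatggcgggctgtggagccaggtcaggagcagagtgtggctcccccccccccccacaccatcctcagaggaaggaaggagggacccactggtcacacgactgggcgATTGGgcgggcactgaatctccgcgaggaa
Cdkn2b (chr4:89310983-89311282): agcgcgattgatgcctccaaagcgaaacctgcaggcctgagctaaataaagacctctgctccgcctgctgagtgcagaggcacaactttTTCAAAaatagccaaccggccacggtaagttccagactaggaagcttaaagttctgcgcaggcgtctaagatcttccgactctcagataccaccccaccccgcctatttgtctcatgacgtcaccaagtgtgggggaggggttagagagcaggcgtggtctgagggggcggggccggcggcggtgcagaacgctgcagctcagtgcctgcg
The upstream Cdkn2a window held E2F letters 99 bases before the start, the downstream one held CCAAT in reverse after the start, and the Cdkn2b window held the CHR letters in reverse 161 bases before the start. None of the 3 windows held the TEAD letters, which 14.7% of all 32851 windows in the table hold. As most windows lack these letters, their absence here says little. Sequence outside the windows was not searched, and binding was not measured.

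Cdkn2b stood at 8.10 and 9.34 scaled RPKM in male mutants and 8.79 and 7.73 in female mutants, against 1.39 and 0.96 in male controls and 1.18 and 1.04 in female controls. Every mutant library was thus far above every control library, with little spread inside either genotype. The rise was 6.95-fold (95% interval 5.71 to 8.46, limma adjusted p = 2.78e-06). It ranked 83rd from the top among the log2 changes of 18059 genes. In each sex it was of like size, at a log2 of 2.81 in males and 2.79 in females, with 2.63 from replicate 1 and 2.97 from replicate 2.

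Cdkn2a stood at 1.45 and 2.01 scaled RPKM in male mutants and 2.19 and 1.38 in female mutants, against 0.128 and 0.147 in male controls and 0.297 and 0.15 in female controls. The genotypes did not overlap, and the control level rested on 46 reads in 4 libraries, beside 436 reads in mutants. At 12 and 4 reads in male controls and 26 and 4 in female controls, the controls alone would not have met the read filter. Cdkn2a was thus tested only through the group where it was high, so its p-value and lack of overlap are descriptive. The fitted rise was 6.67-fold (95% interval 4.74 to 9.38, limma adjusted p = 4.56e-05), at a log2 of 2.65 from replicate 1 and 2.83 from replicate 2. Because the control level is close to the pseudocount of 0.1, the size depends on it: the log2 rise was 3.26 with a pseudocount of 0.01 and 1.21 with 1, and 3.19 by voom. The table gives 1 value per gene, so transcripts for p16 and for ARF cannot be told apart. Gm12610, a gene model that overlaps Cdkn2b, had 7 reads in mutants and 3 in controls.

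The other inhibitors of the set, Cdkn2c (the INK4 inhibitor p18) and Cdkn1b (the CIP/KIP inhibitor p27), did not pass. Cdkn2c stood at 12.2 and 8.63 scaled RPKM in male mutants and 9.18 and 10.8 in female mutants, against 11.7 and 10.4 in male controls and 12.7 and 10.3 in female controls. The genotypes overlapped, with a fold of 0.899 (95% interval 0.735 to 1.10, limma adjusted p = 0.43). Cdkn1b stood at 16.3 and 20.5 in male mutants and 19.1 and 17.2 in female mutants, against 17.7 and 16.7 in male controls and 15.6 and 15.1 in female controls. Its fold was 1.12 (95% interval 0.971 to 1.29, limma adjusted p = 0.232), and 2 control libraries reached above the lowest mutant library.

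The remaining CDK inhibitor genes, which are not among the 42, moved in both directions. Cdkn1c encodes the CIP/KIP inhibitor p57, which marks cells that have left the cycle and is strong in podocytes. It stood at 168 and 146 scaled RPKM in male mutants and 136 and 170 in female mutants, against 528 and 456 in male controls and 476 and 448 in female controls. That is 3.09-fold lower, with no overlap (limma adjusted p = 1.67e-05). Of 6 podocyte markers 4 fell, beside 13.0% of all genes tested. The markers summed to 113 to 137 scaled RPKM in mutants and 160 to 187 in controls, and none was at 0. Their part in the fall of Cdkn1c was not tested, and in whole kidneys fewer cells of a type and less RNA per cell cannot be told apart.

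Cdkn1a, which encodes the p53-induced inhibitor p21, stood at 57.7 to 62.5 scaled RPKM in mutants and 38.5 to 44.4 in controls. It rose 1.47-fold without overlap (limma adjusted p = 0.000719). Cdkn2d, the gene of the INK4 inhibitor p19, averaged 15.7 ± 2.04 in mutants and 16.5 ± 3.40 in controls (SD, n = 4 each), with a limma adjusted p of 0.832. Summed over the 4 INK4 genes, the level was 34.0 to 39.6 scaled RPKM in mutants and 25.1 to 34.0 in controls. Cdkn2a and Cdkn2b together made up 24.1% to 33.4% of that sum in mutants and 4.35% to 4.74% in controls. The CIP/KIP sum was 213 to 247 in mutants and 501 to 587 in controls, and Cdkn1c was the highest of its 3 genes in every library.

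**Figure D1:**
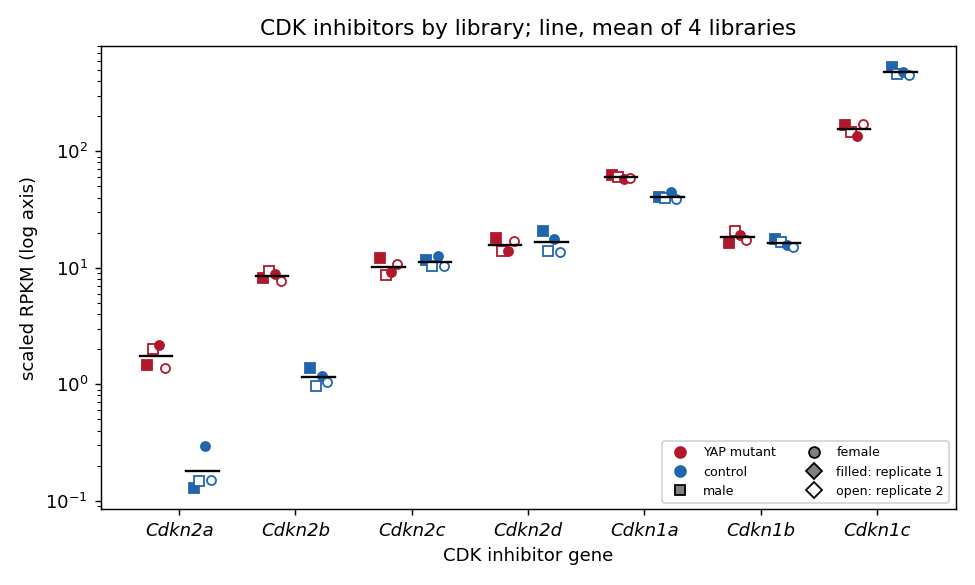
Scaled RPKM (log axis) of 7 CDK inhibitor genes in each library, YAP mutants in red left of controls in blue; squares are males, circles females, filled points replicate 1 and open points replicate 2, and lines are means of 4 libraries. Cdkn2a and Cdkn2b are higher and Cdkn1c is lower in all mutant libraries, while Cdkn2c, Cdkn2d and Cdkn1b overlap.

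Among the 9 G1 and G1/S drivers, Ccnd1 and Cdk6 rose, Ccnd2 and Ccnd3 fell and 5 did not pass, beside 13.2% of all genes tested that rose and 13.0% that fell. The D-type cyclins, which sense growth signals and pair with CDK4 and CDK6, thus moved in different directions. Ccnd1 (cyclin D1) stood at 200 and 178 scaled RPKM in male mutants and 189 and 155 in female mutants, against 112 and 133 in male controls and 141 and 153 in female controls. All mutant libraries were higher, though the lowest of them, at 155, was close to the highest control library at 153. The rise was 1.34-fold (95% interval 1.11 to 1.62, limma adjusted p = 0.0326). The log2 rise was 0.62 from replicate 1 (adjusted p = 0.0269) and 0.22 from replicate 2 (adjusted p = 0.399). The log2 rise was 0.63 in males and 0.22 in females, and the difference between the sexes did not pass (interaction, limma adjusted p = 0.949).

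Ccnd2 (cyclin D2) stood at 9.72 and 8.84 scaled RPKM in male mutants and 9.04 and 11.2 in female mutants, against 10.2 and 14.1 in male controls and 13.4 and 16.1 in female controls. The genotypes overlapped in 1 pair, the highest mutant library being above the lowest control. It was 1.37-fold lower (limma adjusted p = 0.0299), with a log2 of -0.31 from replicate 1 (adjusted p = 0.193) and -0.59 from replicate 2 (adjusted p = 0.00885). Ccnd3 (cyclin D3) stood at 47.8 and 47.0 in male mutants and 46.0 and 44.8 in female mutants, against 51.9 and 53.5 in male controls and 55.5 and 55.6 in female controls. It was 1.17-fold lower without overlap (limma adjusted p = 0.0342), at a log2 of -0.20 from replicate 1 and -0.25 from replicate 2, and passed in neither batch alone (adjusted p = 0.285 and 0.271).

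The calls of the 3 cyclin genes lay near the threshold. Ccnd1 no longer passed without male mutant replicate 1 (adjusted p 0.103) or 2 (0.0764), female mutant replicate 1 (0.0851), male control replicate 1 (0.0551) or 2 (0.0756), or female control replicate 1 (0.0693). That of Ccnd2 was lost without male mutant replicate 1 (0.0516) or 2 (0.0712), female mutant replicate 1 (0.0864), male control replicate 2 (0.0911), or female control replicate 1 (0.0527) or 2 (0.0705). That of Ccnd3 was lost in 7 of the 8 such fits, all but that without male control replicate 1, with adjusted p-values of 0.0652 to 0.112. Their signs were the same in all 19 alternatives tried.

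The make-up of the D-type cyclin transcripts was also compared. The sum of the 3 was 211 to 257 scaled RPKM in mutants and 174 to 225 in controls, which overlap. Ccnd1 made up 77.6% and 76.1% of the sum in male mutants and 77.4% and 73.4% in female mutants, against 64.3% and 66.3% in male controls and 67.3% and 68.1% in female controls. The share of Ccnd2 was 3.71% to 5.33% in mutants and 5.86% to 7.16% in controls, and that of Ccnd3 18.6% to 21.2% in mutants and 24.7% to 29.8% in controls. None of the 3 shares overlapped between genotypes, while 30.5% of all genes tested did not overlap in level. As the shares are parts of the same sum, of genes already called, they are not separate results.

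The kinase partners of these cyclins differed in level and in change. Cdk6 was low, at 2.67 and 2.58 scaled RPKM in male mutants and 2.78 and 2.46 in female mutants, against 1.53 and 1.83 in male controls and 1.67 and 2.09 in female controls. It rose 1.45-fold (95% interval 1.22 to 1.73, limma adjusted p = 0.00742), without overlap, and the call held whichever library was left out. The log2 rise was 0.73 from replicate 1 (adjusted p = 0.0122) and 0.35 from replicate 2 (adjusted p = 0.293). Cdk4 was far higher in this per-length level, at 328 and 260 in male mutants and 300.0 and 344 in female mutants, against 348 and 304 in male controls and 336 and 293 in female controls. Its genotypes overlapped, with a fold of 0.959 (95% interval 0.801 to 1.15, limma adjusted p = 0.746). Cdk6 made up 0.71% to 0.981% of the sum of both kinases in mutants and 0.439% to 0.707% in controls.

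The genes that carry cells from G1 into S phase did not pass. Ccne1 (cyclin E1) stood at 10.4 and 6.57 scaled RPKM in male mutants and 7.24 and 11.7 in female mutants, against 10.1 and 10.1 in male controls and 10.7 and 10.3 in female controls. The 4 control libraries were nearly alike, while the mutant ones spread to both sides of them (fold 0.847, 95% interval 0.642 to 1.12, limma adjusted p = 0.368). Ccne2 (cyclin E2) stood at 5.61 and 3.47 in male mutants and 3.86 and 5.65 in female mutants, against 5.42 and 5.28 in male controls and 4.64 and 4.46 in female controls (limma adjusted p = 0.678). Cdk2, their kinase, stood at 14.7 to 16.5 in mutants and 14.2 to 16.2 in controls (limma adjusted p = 0.773). E2f1, which encodes an activating E2F factor, stood at 6.37 to 10.5 in mutants and 7.27 to 9.12 in controls (limma adjusted p = 0.83).

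**Figure D2:**
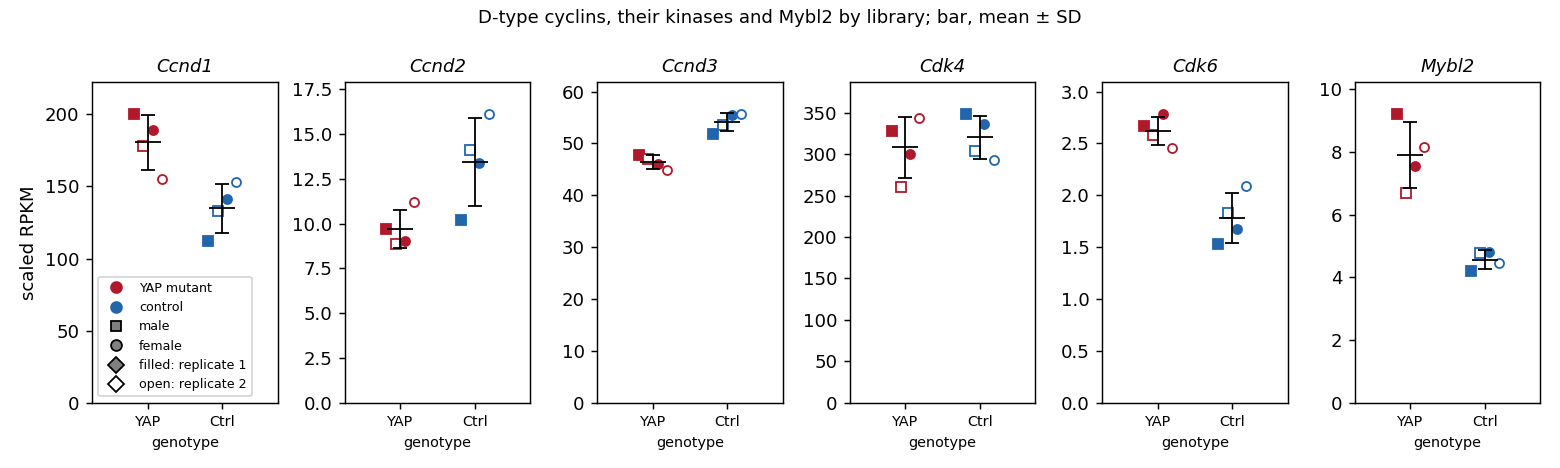
Scaled RPKM of the D-type cyclins, their kinases and Mybl2 in each library, YAP mutants in red left of controls in blue, with mean and SD of 4 libraries; each panel starts at 0, squares are males, circles females, and open points replicate 2. Ccnd1, Cdk6 and Mybl2 are higher and Ccnd3 is lower in all mutant libraries. Ccnd2 overlaps in 1 pair, and Cdk4 overlaps although male mutant replicate 2 lies below all controls.

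None of the 14 S phase genes passed by limma, and none by voom; 1 had an unadjusted p under 0.05, beside 37.0% of all genes tested. Their median log2 change was -0.07. The list holds Pcna (the clamp of the replication fork), Mcm2 to Mcm7 (the subunits of the replicative helicase), Cdc6 and Cdt1 (which load it), Rrm1, Rrm2 and Tyms (which make DNA precursors) and the repressors E2f7 and E2f8. Rrm2, a subunit of ribonucleotide reductase, had the lowest p. It stood at 61.2 and 47.9 scaled RPKM in male mutants and 51.3 and 56.0 in female mutants, against 39.7 and 47.1 in male controls and 45.9 and 46.9 in female controls. The libraries did not overlap, and the fold was 1.20 (95% interval 1.03 to 1.41, limma adjusted p = 0.0865).

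Tyms, the thymidylate synthase gene, stood at 13.5 and 8.89 scaled RPKM in male mutants and 10.6 and 12.8 in female mutants, against 14.2 and 11.6 in male controls and 14.8 and 12.5 in female controls (fold 0.855, 95% interval 0.682 to 1.07). E2f8 stood at 4.32 and 2.64 in male mutants and 3.44 and 3.93 in female mutants, against 3.48 and 4.25 in male controls and 3.88 and 4.99 in female controls (fold 0.861, 95% interval 0.666 to 1.11). Mcm5 stood at 45.0 and 31.2 in male mutants and 35.4 and 43.3 in female mutants, against 37.8 and 44.4 in male controls and 43.0 and 45.4 in female controls (fold 0.901, 95% interval 0.737 to 1.10). In Tyms, E2f8 and Mcm5 the mutant libraries overlapped the controls, with male mutant replicate 2 the lowest. Pcna stood at 110.0 to 172 in mutants and 113 to 151 in controls, with a fold of 1.08 (95% interval 0.839 to 1.40). The 10 genes other than Rrm2, Tyms, E2f8 and Mcm5 had log2 changes from -0.11 (Rrm1) to 0.20 (E2f7). The 6 MCM subunits summed to 172 to 230 scaled RPKM in mutants and 189 to 238 in controls. Over the 14 genes, the 95% intervals of the fold lay between 0.666 and 1.56, so changes of 2-fold either way were outside them. These bounds are for RNA of the whole kidney, and changes within the small portion of cells with active Cre were not measured.

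Of the 15 G2/M genes 1 rose, Mybl2, and 14 did not pass, beside the 13.2% of all genes tested that rose. Mybl2 encodes B-MYB, which joins the MuvB complex and switches on late cell cycle genes. It stood at 9.20 and 6.68 scaled RPKM in male mutants and 7.55 and 8.17 in female mutants, against 4.20 and 4.78 in male controls and 4.82 and 4.45 in female controls. Every mutant library was above every control, at 1.71-fold (95% interval 1.44 to 2.03, limma adjusted p = 0.00112). The call held in both batches of depth (log2 0.88 from replicate 1 and 0.67 from replicate 2), in both sexes (0.79 in males and 0.75 in females) and whichever library was left out. It also held under all other alternatives tried.

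The kinase and cyclins of mitotic entry did not pass. Cdk1, the mitotic kinase, stood at 58.2 and 39.1 scaled RPKM in male mutants and 45.4 and 55.9 in female mutants, against 45.6 and 38.4 in male controls and 43.2 and 33.2 in female controls. Its fold was 1.23 (95% interval 0.965 to 1.57, limma adjusted p = 0.199), and it passed without male mutant replicate 2 (adjusted p 0.0479). Ccnb1 (cyclin B1) stood at 31.6 and 24.1 in male mutants and 24.9 and 28.8 in female mutants, against 22.8 and 24.4 in male controls and 24.8 and 22.8 in female controls (limma adjusted p = 0.19). Ccnb2 (cyclin B2) stood at 56.3 and 49.3 in male mutants and 47.1 and 59.2 in female mutants, against 49.3 and 50.0 in male controls and 48.1 and 45.7 in female controls (limma adjusted p = 0.355). All 3 genes overlapped between genotypes.

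In RNA of the whole kidney, the common markers of dividing cells did not separate the genotypes. Mki67, which encodes the Ki-67 antigen, ranged from 7.81 to 11.0 scaled RPKM in mutants and 6.61 to 14.1 in controls, with a fold interval of 0.66 to 1.31. Top2a, the DNA topoisomerase of dividing cells, ranged from 27.3 to 40.6 in mutants and 27.4 to 47.6 in controls, with an interval of 0.66 to 1.18. Of the others, Aurka, Aurkb and Plk1 encode mitotic kinases, Bub1 and Bub1b spindle checkpoint proteins, Cdc20 an activator of the anaphase-promoting complex, Birc5 survivin, Ccna2 cyclin A2 and Foxm1 a transcription factor of G2/M genes. Their log2 changes ran from -0.07 (Bub1b) to 0.20 (Foxm1), and those of all 14 from -0.18 (Top2a) to 0.30 (Cdk1). The 14 intervals of the fold lay between 0.66 and 1.57.

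**Figure D3:**
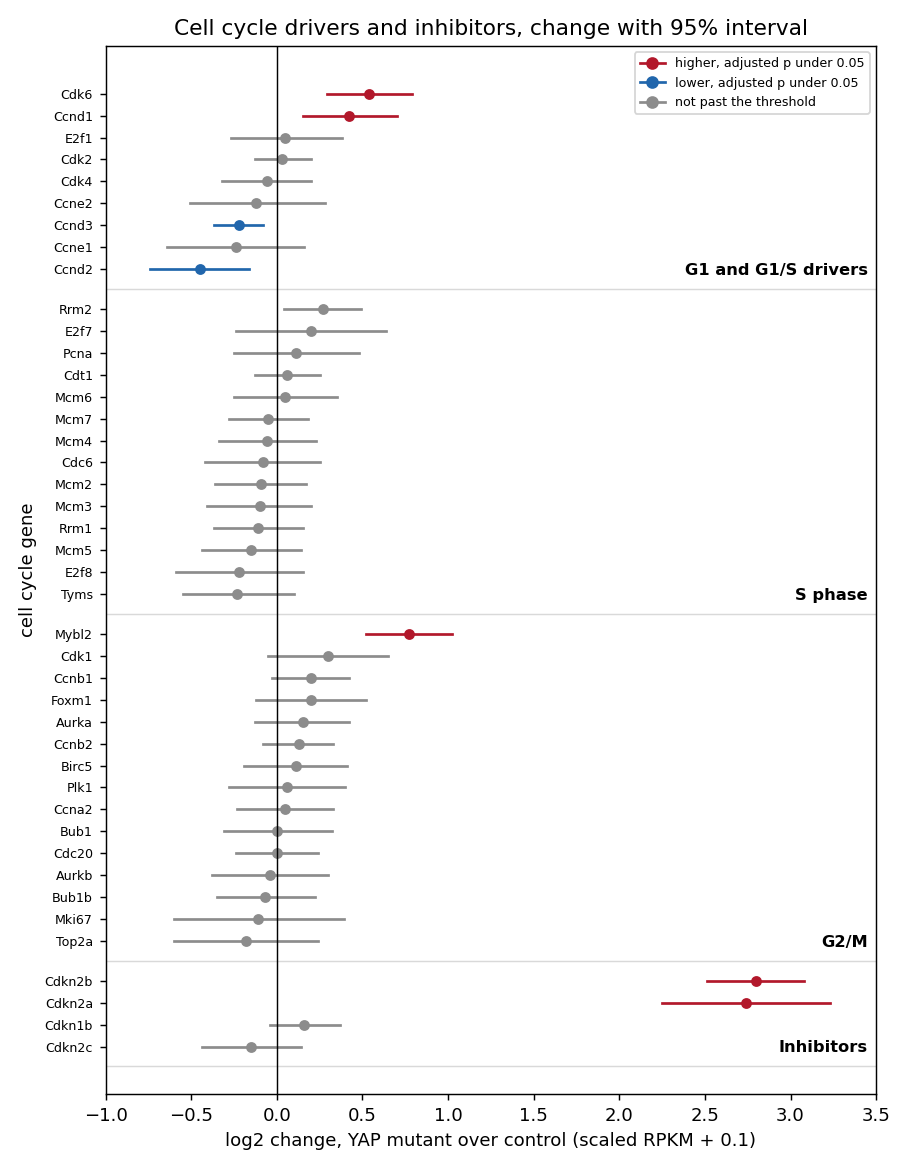
Log2 change of each of the 42 genes, YAP mutant over control, with its 95% interval from limma, by list; red and blue mark genes past the threshold. The 28 grey S phase and G2/M genes lie near 0, Mybl2 stands apart from them at 0.77, and Cdkn2b and Cdkn2a lie at 2.80 and 2.74.

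The S phase and G2/M genes varied together from library to library inside each genotype. Male mutant replicate 1 and female mutant replicate 2 were the upper 2 of the 4 mutant libraries in 29 of 29 genes. Their median was 0.19 and 0.16 above the mutant mean on the log2 scale, while male mutant replicate 2 lay 0.23 and female mutant replicate 1 lay 0.14 below it (medians of -0.23 and -0.14). Among controls, male replicate 1 was the lowest in 23 of 29 genes, with a median of -0.17, and female replicate 2 was the highest in 17, with 0.11. Neither sex nor depth separates the high from the low mutant libraries. As the genes move together, the 29 are not independent measurements of a change.

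In sums, the S phase list stood at 545 and 391 scaled RPKM in male mutants and 450 and 538 in female mutants, against 440 and 497 in male controls and 477 and 480 in female controls. The G2/M list stood at 422 and 320 in male mutants and 329 and 419 in female mutants, against 324 and 361 in male controls and 351 and 368 in female controls. In both lists, the mutant libraries reached above and below the control range. The median log2 change of the 29 genes was 0.10 from replicate 1 and -0.10 from replicate 2. In 24 of the 28 genes that did not pass, the change was higher from replicate 1 than from replicate 2. Both medians were small, and they differed in sign.

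**Figure D4:**
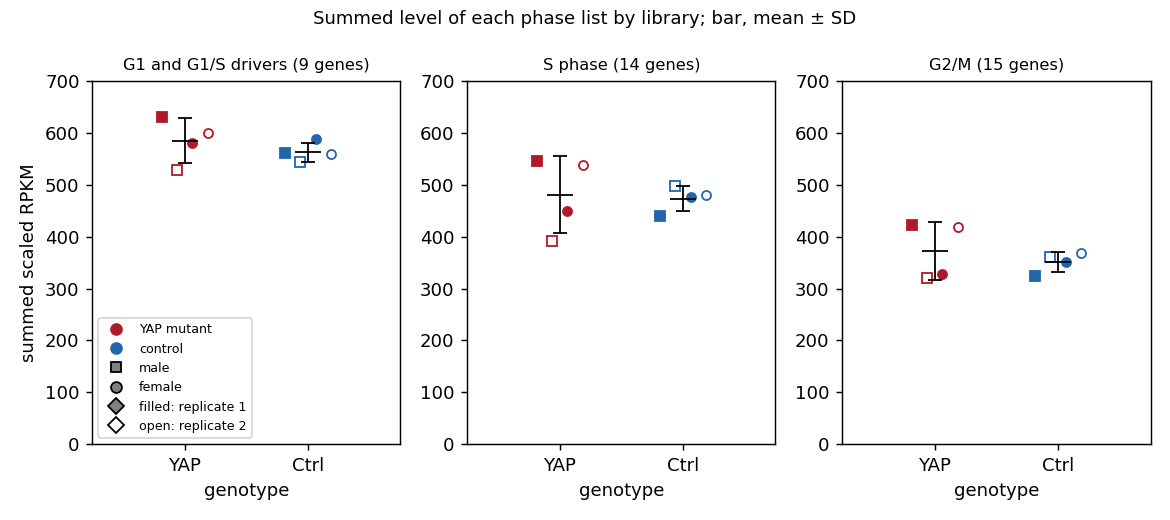
Summed scaled RPKM of the G1 and G1/S, S phase and G2/M lists in each library, YAP mutants in red left of controls in blue, with mean and SD of 4 libraries; the axes start at 0. The S phase sum runs from 391 to 545 in mutants and 440 to 497 in controls, and the mutant libraries are the more spread in each list.

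The promoters of the replication and mitosis genes were searched for the same letters. Stretches of 60 bases around the letters of 4 genes are shown as examples of both kinds, with E2F, CHR and CCAAT letters in capitals (RefSeq, GRCm38.p6; Cdc6 on the plus strand and the others on the minus strand).
Cdc6 (chr11:98907987-98908046): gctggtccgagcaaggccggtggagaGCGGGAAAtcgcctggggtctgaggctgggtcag
Mcm6 (chr1:128359782-128359841): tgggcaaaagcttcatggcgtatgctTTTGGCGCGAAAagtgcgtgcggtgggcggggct
Cdc20 (chr4:118437328-118437387): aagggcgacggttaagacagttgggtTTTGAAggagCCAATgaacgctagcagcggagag
Ccnb2 (chr9:70421688-70421747): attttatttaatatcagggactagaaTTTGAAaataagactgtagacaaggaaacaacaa
Promoters were matched for 35 of the 42 genes. The windows of Cdc6, Cdk6, Mybl2, Aurka, E2f1 and E2f8 lay wholly inside the annotated gene, at an internal start. The outermost starts of these genes were not searched, and the Cdc6 stretch shown lies downstream of its own. E2F letters were in 7 of 13 matched S phase genes and 1 of 12 G2/M genes, against 4.07% of all tested genes with a matched promoter. CHR letters were in 8 of 12 G2/M genes and 2 of 13 S phase genes, against 15.2% of those genes. The Ccnb2 match shown lies 167 bases before the start, and the same window held another, just after the start. CCAAT, which short windows often hold, was in 10 of 12 G2/M genes, 10 of 13 S phase genes and 41.9% of those genes. Per window, 2.26%, 17.9% and 37.4% of all windows in the table held the E2F, CHR and CCAAT letters.

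Of the 10 cell cycle genes with E2F letters 1 rose, Cdkn2a, and 0 fell, with a median log2 change of 0.04. Of the 11 with CHR letters 1 rose, Cdkn2b, and 0 fell, with a median of 0.00. Over all tested genes with a matched promoter, 19.5% of those with E2F letters and 26.7% of those without were called, and 27.4% of those with CHR letters and 26.3% of those without. These counts describe letters in a window, and binding was not measured.

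A wider list of 171 other cell cycle genes, of which 169 were found and 168 tested, gave 16 that rose and 6 that fell, so that 22 passed beside the 26.2% of all genes tested. Claspn, a misspelling of Clspn in the list, and Knl1 were not found under those symbols, and Ccnb3 had too few reads. The median log2 change was 0.03. Among 50 tested genes of origin licensing and replication, 2 rose and 0 fell. Orc1, the largest subunit of the origin recognition complex, rose 1.45-fold to 1.48 ± 0.182 scaled RPKM in mutants, against 0.989 ± 0.0681 in controls (SD, n = 4 each; limma adjusted p = 0.00844). Dbf4, the activator of the replication kinase CDC7, rose 1.35-fold (limma adjusted p = 0.00851).

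Among 58 tested genes of mitosis and cytokinesis, 2 rose, 2 fell and 54 did not pass, beside 26.2% of all genes called. Anln encodes anillin, a scaffold of the contractile ring. It stood at 14.9 and 13.3 scaled RPKM in male mutants and 11.3 and 13.5 in female mutants, against 5.04 and 6.76 in male controls and 6.51 and 7.42 in female controls, a 2.05-fold rise without overlap (limma adjusted p = 0.000697). Kif23, a kinesin of the midbody, rose 1.42-fold (limma adjusted p = 0.0066). Spc25, a kinetochore component, was 1.44-fold lower (0.0282) and Cenpm, a centromere protein gene, 1.43-fold lower (0.0326). Leaving out male mutant replicate 2, female mutant replicate 1, male control replicate 2 or female control replicate 1 ended the calls of both Spc25 (0.0658, 0.0839, 0.0517 and 0.0839) and Cenpm (0.0701, 0.0943, 0.0918 and 0.0557). Leaving out male control replicate 1 also did so for Spc25 (0.06), and female control replicate 2 for Cenpm (0.0722).

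Of 20 pocket protein, E2F, MuvB and MYC genes 4 rose and 3 fell, beside 13.2% and 13.0% of all genes. Myc stood at 21.6 and 23.7 scaled RPKM in male mutants and 21.0 and 17.6 in female mutants, against 8.85 and 8.35 in male controls and 6.36 and 8.46 in female controls. This growth-promoting factor thus rose 2.61-fold without overlap (limma adjusted p = 3.67e-05), and its relative Mycn rose 1.53-fold (0.00602). Lin9, a MuvB subunit that recruits B-MYB, rose 1.22-fold (0.0198), and E2f2, an activating E2F gene, was 1.49-fold lower (0.0153). The pocket protein genes Rb1 and Rbl2, which encode brakes on E2F, were 1.29-fold (0.0349) and 1.18-fold lower (0.0398).

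With 1 library left out, Lin9, E2f2, Rb1 and Rbl2 kept their signs, and their calls held in 3, 7, 2 and 2 of 8 fits. The log2 change of Rb1 stayed between -0.43 and -0.28 and that of Rbl2 between -0.27 and -0.21. Rb1 and Rbl2 both lost their calls without male mutant replicate 1 (adjusted p 0.0783 and 0.121), female mutant replicate 1 (0.0735 and 0.0555) or 2 (0.0834 and 0.108), male control replicate 2 (0.0816 and 0.118), or female control replicate 1 (0.107 and 0.107) or 2 (0.0802 and 0.072). Lin9 lost it without male mutant replicate 1 (0.0687), female mutant replicate 1 (0.0572) or 2 (0.0541), male control replicate 2 (0.0627) or female control replicate 1 (0.0647), and E2f2 without male control replicate 2 (0.0527). Myc and Mycn kept theirs in all 8 such fits. The fourth gene that rose, Mybl1, a relative of Mybl2, was named after its values were seen and stood at only 0.386 ± 0.0492 scaled RPKM in mutants and 0.251 ± 0.0418 in controls (SD, n = 4 each; limma adjusted p = 0.0359, lost in 6 of 8 such fits).

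Of 22 CDK activators, phosphatases and turnover genes 3 rose, beside 13.2% of all genes, and 0 fell. Wee1, the kinase that holds CDK1 inactive, rose 1.41-fold, standing at 11.0 to 12.5 scaled RPKM in mutants and 7.35 to 9.34 in controls (limma adjusted p = 0.00431). Cdc25b, a phosphatase that opposes it, rose 1.25-fold (0.0161) and Mnat1, a subunit of the CDK-activating kinase, 1.38-fold (0.0317). Cdc25b lost its call without male mutant replicate 1 (0.056) or female control replicate 1 (0.0537). Mnat1 did so without male mutant replicate 1 (0.0754), female mutant replicate 1 (0.0849) or 2 (0.0898), male control replicate 2 (0.0961) or female control replicate 2 (0.0552).

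Of 15 checkpoint and p53 loop genes 4 rose and 0 fell, so 4 were called, a share near the 26.2% of all genes tested. Sfn, which encodes the G2 arrest protein 14-3-3 sigma of epithelial cells, stood at 76.1 to 86.4 scaled RPKM in mutants and 6.64 to 11.4 in controls. It rose 9.38-fold (limma adjusted p = 2.81e-06). The antiproliferative gene Btg2 rose 2.45-fold (1.79e-05) and Gadd45g, a stress-induced growth arrest gene, 3.66-fold (0.000234). Mdm2, the gene of a p53 inhibitor that p53 itself induces, rose 1.32-fold (0.00422), and Trp53 averaged 49.0 ± 5.02 scaled RPKM in mutants and 43.8 ± 2.37 in controls (SD, n = 4 each; limma adjusted p = 0.249); both were named after their values were seen.

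**Figure D5:**
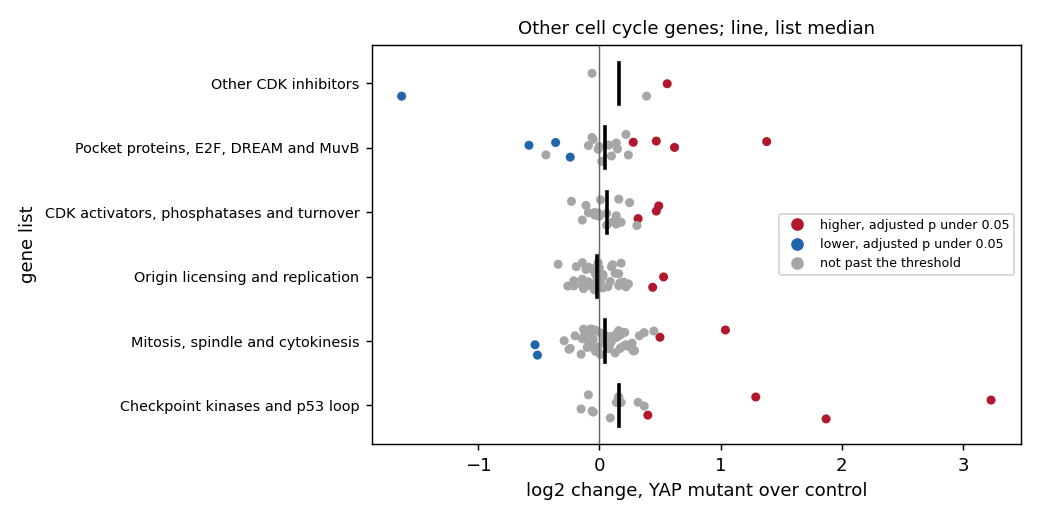
Log2 change, YAP mutant over control, of each tested gene of 6 wider cell cycle lists; red and blue points passed the threshold, and the vertical line is the list median. Replication and mitosis genes have medians of -0.02 and 0.05, while Sfn at 3.23 and Cdkn1c at -1.63 are the extremes.

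Markers of cell types that can divide or express these genes were read beside the 42. For comparison with the counts below, 13.2% of all genes tested rose and 13.0% fell. All 12 macrophage markers rose, with a summed level of 292 to 350 scaled RPKM in mutants and 71.7 to 91.2 in controls, and none was at 0. Of 10 nephron progenitor markers 1 fell and 0 rose, and the sum was 45.7 to 64.4 in mutants and 62.0 to 78.3 in controls. Their defining gene Six2 was at an average of 1.78 scaled RPKM in mutants and 2.37 in controls (limma adjusted p = 0.285). Of 8 endothelial markers 4 fell and 0 rose, with a sum of 154 to 190 in mutants and 225 to 251 in controls. Of 9 stromal markers 3 fell and 0 rose, with overlapping sums of 359 to 457 in mutants and 427 to 482 in controls. Of 6 ureteric tip markers 1 fell, with sums of 29.5 to 38.0 in mutants and 36.6 to 43.6 in controls. Of 7 tested lymphocyte markers 4 rose and 1 fell, at sums of only 2.19 to 2.62 in mutants and 1.55 to 2.20 in controls, and of 7 erythroid markers 2 fell. The part of these cell types in the levels of cyclins, Mybl2 and the inhibitors was not tested.

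The sexes were compared by the interaction of genotype and sex, with 2 libraries per group. It passed for 0 of 42 by limma, with 0 at an unadjusted p under 0.05, and for 0.0% of all genes tested, with 2.98% of them at an unadjusted p under 0.05, which does not show that the sexes responded alike. Within males 5 of the 42 rose and 0 fell, beside 7.92% and 7.40% of all genes. Within females 3 rose and 0 fell, beside 5.99% and 5.66%. Cdkn2a, Cdkn2b and Mybl2 passed in both sexes, and Ccnd1 and Cdk6 in males.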

How the data were processed

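Poly(A) RNA of 8 whole-kidney samples at postnatal day 3 was sequenced, per the labels' protocols. STAR, featureCounts and mm10 are named in the submitters' processing notes. The sources used here do not state the annotation release, the strand setting or how multi-mapping reads were counted. The values deposited by the authors are RPKM, with the gene length used. Multiplied by length and library size, all 179720 nonzero values (100%) came within 0.01 of a whole read, so read counts were recovered. Library factors (TMM, 0.969 to 1.03) were computed from them.

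A gene was tested with at least 0.2 reads per 1000000 in 2 libraries and 15 reads in all, which left 18059 of 35976. Limma 3.58.1 in R 4.3.3, with trend and robust options, was fitted to log2(scaled RPKM + 0.1) on genotype and sex, with Benjamini-Hochberg adjustment over all genes tested. Fold changes on that scale understate the change of low genes. A model of the 4 group means gave the values within each sex and their interaction. Voom on the recovered reads was the alternative test. Only the limma genotype fit, without library factors, was tested on simulated data. Read numbers carry counting error on top of the spread between libraries, and the replicate 2 libraries, with fewer reads, measure low genes less precisely.

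The 42 genes and all other lists were chosen with earlier results of these data known. Genes described in full were all inhibitors and G1 drivers and, in each other list, those with the lowest p-values (4 per phase list).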

Additional observations from a re-analysis of the deposited data

Results flagged for a closer look

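In 92 sets of 4 libraries of a genotype, the gap of the most extreme library to its neighbour was compared with the whole range of the set, and 2 exceeded Dixon's 95% critical value. Chance gives about 1 in 20. For Rrm2, male control replicate 1 was the lowest control, at 39.7 scaled RPKM beside 45.9 to 47.1 in the other controls, a ratio of 0.848. For Cdkn2a, female control replicate 1 was the highest control, at 0.297 scaled RPKM beside 0.128 to 0.15 in the other controls, a ratio of 0.836. That value rested on 26 reads, beside 12 and 4 in male controls and 4 in female control replicate 2, where counting error is large. All mutant libraries were above these controls in both genes.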

How the results depend on the processing

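Over 19 alternatives, 8 of which left out 1 library, 770 of 798 gene-by-alternative calls of the 42 genes were the same as reported, 27 were lost, 1 was gained and 0 reversed. Of the 35 genes that did not pass, 20 changed sign in some alternative, and of the 7 that passed, 0 did. Cdkn2a, Cdkn2b and Mybl2 passed in all 19, and Cdk6 in 18. From replicate 2 alone 1474 genes fell, 3 of the 42 rose and 1 fell, and of the G1 drivers 0 rose and 1 fell. From replicate 1 alone 0 of the 42 fell, with 0 of the G1 drivers. Without the filter 1 of the 42 fell, and of the G1 drivers 1 rose and 1 fell; without the trend and robust options 1 of the 42 fell, a G1 driver. With a pseudocount of 1 the inhibitors' median log2 was 0.685. Of the pocket protein list 2 rose in each batch, and 1 fell without the filter and 0 from replicate 1. Of the CDK activators 1 rose from replicate 2. Of the licensing genes 1 rose in each batch, and 1 fell from replicate 1. Of the mitosis list 0 fell without the filter and 1 in each batch. The interaction passed for 1 gene with a pseudocount of 1. For these changes the cause was not tested.

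With 1 library left out, the 42 genes gave 0 to 2 that fell, and the G1 drivers 1 to 2 that rose and 0 to 2 that fell. G2/M genes that rose numbered 1 to 2, other CDK inhibitors 1 to 2, pocket protein genes 2 to 4, with 0 to 3 that fell, and CDK activators 1 to 4. Licensing genes that fell numbered 0 to 1, and of the mitosis list 2 to 4 rose and 0 to 2 fell. Within males 1381 to 2576 genes and 2 to 5 of the 42 passed, within females 922 to 2216 genes, and the interaction 0 to 1.

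The replicate number is not shown to pair the libraries: correlations of the deviations of same-numbered libraries ran from -0.0 to 0.378. With the replicate block, 2753 genes rose and 2717 fell, against 2388 and 2350 in the main fit, which left replicate number out. The 42 genes then gave 5 and 2, 1 licensing gene fell, and the interaction passed for 1 gene.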
